A study of Homo sapiens with 15 samples.

Results

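The segment described here is the part of chromosome 7 from its short-arm end to base 128092609 of GRCh38, the last base of SND1 on the long arm, in HEK293T cells of the MAGI2-CKO clone. Its members are the protein-coding genes of GENCODE v29 that start before that base and reached at least 0.5 FPKM (fragments scaled to exon length and library size, the deposited unit) in at least 3 of the 15 libraries. There were 449 of them among the 16175 genes tested and among 674 annotated protein-coding genes of the segment. Of the 225 others, 53 were listed at 0 in every library, and 9 reached 0.5 FPKM in only 1 or 2 libraries. The rest of chromosome 7 held 131 genes that passed the same filter, of 236 annotated. The segment was chosen on the MAGI2-CKO minus Non-target difference of these same libraries, so that difference is given as a description, without a test.

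RNA was sequenced from 5 groups of HEK293T, a human embryonic kidney line with an abnormal karyotype. Every group had been transduced with lentiCRISPRv2, which carries Cas9, a guide RNA and puromycin resistance, and the groups differ in the guide. In MAGI2-CKO and RHBDD2-CKO the targeted gene lies on chromosome 7 (genotypes MAGI2-KO and RHBDD2-KO), in C9orf89-CKO and MLPH-CKO on another chromosome (genotypes C9orf89-KO and MLPH-KO), and Non-target received a guide without a target and is labelled WT. Each group is 1 clone made by limiting dilution and has 3 libraries from 3 wells, so the spread and the p-values below cover differences between wells and not between clones. All comparisons with Non-target share its 3 libraries. A library held 15517856 to 19489918 fragments on genes, with a median of 16265355 in Non-target and 19423812 in MAGI2-CKO. Of the markers of HEK293T, VIM was at 40.1 to 87.9 FPKM and KRT18 at 11.3 to 18.5 over the 15 libraries, while NEFM ranged from 0 to 38.4. Of the myeloid markers, MPO was at 0 throughout and PTPRC had at most 1 fragment in a library. CD14 reached 8 fragments and SPI1, the highest of them, 16 (0.398 FPKM). Of the mesenchymal markers, COL1A2 had at most 1 fragment and THY1 at most 3, whereas COL1A1 was at 2.24 to 5.42 FPKM. COL3A1 reached 176 fragments (1.47 FPKM) and LUM 47 (0.890 FPKM).

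Chromosome 7 carries genes of unrelated function side by side, among them the HOXA cluster of homeobox genes that pattern the body axis, the region deleted in Williams-Beuren syndrome, the receptor tyrosine kinases EGFR and MET, the cell cycle kinase CDK6 and the drug efflux pump ABCB1. Neighbouring genes are mostly transcribed from their own promoters, and a log2 difference common to a long run of them is seen only when genes are read in the order of their position. RNA of bulk cultures was measured here, in which fewer cells with a transcript and less RNA per cell cannot be told apart. The DNA of the clones was not analysed here, and the cause of the shift was not tested.

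MAGI2, a scaffold protein of cell junctions and the gene targeted in the clone, lies inside the segment on the minus strand (78017057 to 79453574). Its guide is shown because it fixes where Cas9 was directed relative to the segment. The guide is followed by the protospacer adjacent motif of the target, in capitals.
MAGI2 target: tgacaacctctacctccgcaCGG
The 20 bases of the guide match chr7:79007099-79007118 in exon 2 of 6 of the 42 annotated MAGI2 transcripts, 49.1 Mb before the edge of the segment. RHBDD2, a membrane protein of the rhomboid family, is also a member (75842602 to 75888926), and its guide matched no single exon. Exon sequence was searched and not the genome, so the place of this guide was left undetermined.
RHBDD2 guide: gctcaccttgccagttgcga
Both guides are those of the study. MAGI2 itself was under the filter, with 32 to 68 fragments in a library. It was at 0.119, 0.102 and 0.123 FPKM in the libraries of Non-target and at 0.0899, 0.0523 and 0.0618 in those of MAGI2-CKO. The other clones had 0.0666 to 0.0749 FPKM (C9orf89-CKO), 0.0660 to 0.109 (MLPH-CKO) and 0.0576 to 0.0974 (RHBDD2-CKO), so that MAGI2-CKO overlapped each of them and lay below the Non-target libraries.

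In MAGI2-CKO the members had a median log2 difference to Non-target of -0.62, on the log2(FPKM + 0.1) scale used throughout, which is 65.2% of the Non-target level. The quartiles were -0.80 and -0.42, and 416 of 449 (92.7%) were below 0. By size, 54 members were below -1, 237 lay from there to -0.5, 92 lay between -0.5 and -0.25, 33 lay closer to 0, and 33 were at or above 0. The rest of chromosome 7 had a median of 0.04, with 58 of 131 genes below 0, and the 16175 tested genes had a median of 0.00. The segment thus lay 0.66 below the rest of its own chromosome, at 63.4% of it. The interquartile range of single genes in MAGI2-CKO was 0.38 in the segment and 0.34 in the rest of chromosome 7. It was 0.49 over all tested protein-coding genes.

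The shift was the same size in each MAGI2-CKO library. The segment medians of the 3 libraries, taken against the mean of Non-target, were -0.61, -0.63 and -0.62. Those of the Non-target libraries were 0.00, 0.01 and -0.01. The remaining 9 libraries lay between -0.07 and 0.03, so the MAGI2-CKO libraries stood apart from all 12 others, with an SD of 0.01 between wells in both MAGI2-CKO and Non-target. Over the rest of chromosome 7 the same 3 libraries each had a median of 0.04. In 277 members (61.7%), all 3 MAGI2-CKO libraries were below all 12 libraries of the other groups, against 3 of the 131 genes of the rest (2.29%). These counts use the values that chose the segment and are a description, without the share over all tested genes.

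The MAGI2-CKO libraries, which chose the segment, were also compared with the other clones. Against the mean of the other 3 clones, which leaves Non-target out, the members of MAGI2-CKO had a median of -0.57, and 432 of 449 were below 0. The median was -0.55 against C9orf89-CKO, -0.55 against MLPH-CKO and -0.60 against RHBDD2-CKO. The rest of chromosome 7 was at 0.02, 0.08 and 0.28 in the same 3 comparisons. The medians of the 22 other chromosomes in MAGI2-CKO ran from -0.23 (chromosome 3) to 0.37 (chromosome 15). The segment was chosen on these values and the chromosomes were not, so its place below them is no test.

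The other clones showed no such shift over the segment. Its median was 0.01 in RHBDD2-CKO, -0.05 in MLPH-CKO and -0.05 in C9orf89-CKO. Against Non-target, 57 members were lower in C9orf89-CKO (12.7%) and 37 higher (8.24%) at an adjusted p under 0.05 in limma, beside 13.1% and 12.9% of all tested genes. In MLPH-CKO 69 were lower (15.4%) and 45 higher (10%), beside 15.5% and 14.5%. In RHBDD2-CKO 76 were lower (16.9%) and 69 higher (15.4%), beside 16.7% and 17.4%. The share of members called was near or under that of all genes in these 3 clones. A fit blocked on the well number put 96 members (21.4%) lower in C9orf89-CKO, beside 18.7% of all tested genes in that fit. In MAGI2-CKO, on the values that chose the segment, 355 members had all 3 libraries below those of Non-target and 10 had them all above, beside 24.4% and 22.4% of all tested genes.

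RHBDD2-CKO had a shift of its own on the other side of the edge. The rest of chromosome 7 had a median of -0.25 in this clone, with 96 of 131 genes below 0. Chromosome X, at -0.26, and chromosome 3, at -0.22, had medians near it in the same clone. Over the rest of chromosome 7, its 3 libraries were at -0.27, -0.24 and -0.25. In limma, 54 of the 131 genes (41.2%) were lower and 7 (5.34%) higher, against the 16.7% and 17.4% of all genes given above. CDK5, a kinase of neurons, had a difference of -0.93 in RHBDD2-CKO and 0.10 in MAGI2-CKO, and SSBP1, a mitochondrial DNA-binding protein, had -0.56 and -0.17. Of the 18 genes listed as examples of the rest, 9 were lower and 1 higher in RHBDD2-CKO in limma.

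Along the segment the shift was present from the short-arm end onward. In windows of 10 Mb, the MAGI2-CKO median stayed between -0.88 and -0.53 over the first 110 Mb, with the lowest value from 60 to 70 Mb (19 genes) and the highest from 70 to 80 Mb (44 genes). It was -0.67 on the short arm (195 genes) and -0.55 on the long arm (254 genes). The running median of 25 genes was lowest at -0.82, centred on ZNF736, one of the zinc finger genes beside the centromere. The 25 members before MAGI2 had a median of -0.55, and the 25 after it had -0.61. Over all members the order was the reverse, with -0.665 for the 257 before MAGI2 and -0.545 for the 192 after it. In C9orf89-CKO and MLPH-CKO the running median stayed between -0.25 and 0.22 and between -0.31 and 0.27 over the segment.

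Toward the edge the difference became smaller before it ended. From BMT2 to GPR37 (112819147 to 124745997, 23 members) the median was -0.32, against -0.63 for the 420 members before it. The 6 members from POT1 onward had -0.13. A single step fitted to all 580 genes of the chromosome, placed where the summed absolute deviation was smallest, fell between GPR37 and POT1, with a median of -0.62 over 443 genes before and 0.03 over 137 after. MAGI2-CKO against the other clones gave the same place, with -0.57 and 0.10. Of the 3 MAGI2-CKO libraries taken singly, 2 gave the same place, and replicate 1 gave a step between CTTNBP2 and LSM8, after 432 genes. The step therefore lay 3.27 Mb before the edge that defines the members. In RHBDD2-CKO the step fell between PODXL and CHCHD3, with 0.01 before and -0.33 over the 103 genes after it. Of its libraries taken singly, 2 gave that place, and replicate 1 gave a step between SLC35B4 and AKR1B1, after 480 genes.

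The single genes next to that place varied widely. The last 4 members before it were NDUFA5 (-0.11), WASL (-0.15), TMEM229A (-3.28) and GPR37 (-3.08), as log2 differences of MAGI2-CKO to Non-target. GPR37, an orphan receptor of the endothelin receptor family, was at 0.188, 0.188 and 0.322 FPKM in MAGI2-CKO and at 2.5, 2.42 and 3.17 in Non-target, a difference of -3.08. POT1, which caps telomeres and starts 0.0764 Mb further on, was at 5.30, 4.91 and 4.54 in MAGI2-CKO and at 5.04, 4.79 and 5.42 in Non-target, a difference of -0.05. The 2 groups were far apart for GPR37 and overlapped for POT1. GPR37 was also lower in the 3 clones without the shift, at -1.15 in C9orf89-CKO (adjusted p = 0.0029 in limma), -2.08 in MLPH-CKO (adjusted p = 2.81e-05 in the same fit) and -0.82 in RHBDD2-CKO (adjusted p = 0.0151 in the same fit, and up to 0.0652 under the alternatives).

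The last 5 members inside the edge were ZNF800 (-0.02), GCC1 (0.05), ARF5 (-0.21), SND1 (-0.21) and LRRC4 (-0.96), as log2 differences of MAGI2-CKO to Non-target. The first 5 genes outside were RBM28 (0.14), PRRT4 (0.15), IMPDH1 (-0.07), HILPDA (-0.01) and METTL2B (-0.11). SND1, a nuclease of RNA-induced silencing complexes, was at 43.4, 47.1 and 50.5 FPKM in MAGI2-CKO and at 50.3, 56.0 and 56.9 in Non-target, so that the groups overlapped. LRRC4, an adhesion protein of synapses, lies inside SND1 on the other strand and had 16 to 62 fragments in a library. Since the kit's use of strand is not given in the sources used here, reads of these 2 genes cannot be told apart.

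The shift was of much the same size in weakly and strongly expressed genes. In 4 groups of members of about equal size by mean FPKM, from low to high, the median difference in MAGI2-CKO was -0.59, -0.60, -0.63 and -0.64. The scatter became narrower, with quartiles of -0.94 and -0.23 in the lowest group and -0.77 and -0.48 in the highest. Genes of other types in the segment (pseudogenes, long noncoding and antisense RNA and others, 156 tested) had a median of -0.32. Such genes were at 0.37 in the rest of chromosome 7 (67 genes) and at 0.28 off chromosome 7 (3577 genes), so the other gene types of the segment also lay lower than their kind elsewhere.

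The 10 members with the highest mean FPKM were housekeeping genes, and none of them was above 0 in MAGI2-CKO. ACTB, the cytoplasmic beta actin often used as a reference for expression, was at 422, 524 and 533 FPKM in MAGI2-CKO and at 734, 965 and 912 in Non-target, a difference of -0.82. The other clones had 588 to 757 FPKM, so that MAGI2-CKO lay below all other groups. PPIA, the chaperone cyclophilin A and likewise a common reference gene, was at 214, 170 and 176 FPKM in MAGI2-CKO and at 405, 367 and 335 in Non-target (-0.99). MDH2, the malate dehydrogenase of mitochondria, was at 59.7, 78.3 and 82.2 FPKM against 112, 152 and 141 (-0.88). The differences were -0.73 for CHCHD2, -0.71 for EIF4H, -0.66 for POP7, -0.65 for CCT6A, -0.58 for RAC1 and -0.56 for MCM7. HNRNPA2B1, a splicing factor, was the exception, at 259, 169 and 173 FPKM in MAGI2-CKO and 281, 199 and 198 in Non-target (-0.18), with overlapping groups.

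In 6 lists of members by function, the medians in MAGI2-CKO ran from -0.58 to -0.72, beside -0.62 for the segment as a whole. The lists are mixed, and their medians were not tested against the segment. The lists that follow were drawn up with earlier results of these data known. Of 18 members in a list of genome maintenance and replication, which also holds the vesicle traffic factor CCZ1 and the nuclear envelope protein SUN1, 18 were below 0 in MAGI2-CKO, with a median of -0.58. RFC2, a subunit of the clamp loader, was at 29.6 ± 0.663 FPKM (SD, n = 3) against 47.8 ± 3.14 in Non-target (-0.69), and PMS2, which repairs mismatches, was at 5.90 ± 0.236 against 7.29 ± 0.495 (-0.30). PMS2 and CCZ1 (-0.63) have near-identical copies and are uncertain for that reason. Of 17 members in transcription, splicing and translation, all were below 0, with a median of -0.65, from LSM8 (-0.12) to RALA (-1.0), a small GTPase that stands in this list without being part of that machinery. Of 16 members of mitochondria, 16 were below 0 with a median of -0.72. CYCS, cytochrome c, had -0.92, and NDUFA5, a subunit of respiratory complex I that starts between BMT2 and GPR37, had -0.11. The 9 members of the proteasome and ubiquitin list had a median of -0.69, the 17 of a list of Golgi, endoplasmic reticulum and other genes -0.70, and the 16 of the actin cytoskeleton and adhesion -0.63, each with all members below 0. The list with Golgi and endoplasmic reticulum genes also holds HSPB1, a small heat shock protein, YWHAG, an adaptor of the 14-3-3 family, PTPN12, a cytosolic phosphatase, GNAI1, a G protein subunit, and RSBN1L. CHCHD2, a mitochondrial protein, stands in the proteasome list too.

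In the 3 clones that did not choose the segment, the members of these lists that passed the threshold in limma are set beside the shares of all tested genes given above, which were 12.9% higher and 13.1% lower in C9orf89-CKO, 14.5% and 15.5% in MLPH-CKO and 17.4% and 16.7% in RHBDD2-CKO. For genome maintenance the counts were 0 higher and 2 lower in C9orf89-CKO, 1 and 2 in MLPH-CKO and 3 and 1 in RHBDD2-CKO. For mitochondria they were 0 and 1, 0 and 3, and 0 and 3, with PSPH, a phosphatase of serine synthesis that is not mitochondrial, among the lower members in RHBDD2-CKO. For transcription, splicing and translation they were 1 and 1, 0 and 2, and 0 and 2. For the proteasome and ubiquitin list they were 0 and 0, 1 and 0, and 0 and 1. For the list with Golgi and endoplasmic reticulum genes they were 1 and 2, 1 and 3, and 1 and 3, where HSPB1 was among the lower members in MLPH-CKO and RHBDD2-CKO, the targeted RHBDD2 was a lower member in its own clone, and PTPN12 was the higher one in RHBDD2-CKO. YKT6, also lower in RHBDD2-CKO, kept its call under 6 of 24 alternatives. The 1 lower member of the proteasome list in RHBDD2-CKO was CHCHD2. For actin and adhesion the counts were 2 and 2, 4 and 1, and 2 and 2. TAX1BP1, an autophagy receptor that stands in this list, was among the 4 higher in MLPH-CKO. Of the 48 calls in these 6 lists and 3 clones, a gene in more than 1 list counted in each, 19 passed the threshold under every alternative.

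The 19 receptors, ligands, kinases and factors of growth signalling had a median of -0.78 in MAGI2-CKO, beside -0.62 for all members, with 18 below 0. Their median against the other clones was -0.83. EGFR was at 0.560, 0.721 and 0.626 FPKM in MAGI2-CKO and at 1.72, 1.44 and 1.71 in Non-target (-1.23). MET, the receptor of hepatocyte growth factor, was at 5.14, 5.32 and 4.97 FPKM in MAGI2-CKO and at 9.91, 9.80 and 10.7 in Non-target (-0.96). CDK6 had 4.90, 5.09 and 4.66 FPKM against 9.26, 7.23 and 8.75 (-0.76). The MAGI2-CKO libraries lay below those of all other groups for these 3 genes. In RHBDD2-CKO, MET rose by 0.37 (standard error 0.09, adjusted p = 0.0085 in limma). Across this list 1 member was higher and 4 lower in C9orf89-CKO, 1 and 2 in MLPH-CKO and 6 and 3 in RHBDD2-CKO in limma. Of the 19 members, 5.26% were thus higher and 21.1% lower in C9orf89-CKO, beside 12.9% and 13.1% of all tested genes. The shares were 5.26% and 10.5% in MLPH-CKO, beside 14.5% and 15.5%, and 31.6% and 15.8% in RHBDD2-CKO, beside 17.4% and 16.7%.

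The largest falls went far beyond the common shift. Among members with a mean of at least 1 FPKM and no overlap with Non-target, the 6 largest in MAGI2-CKO were UNCX (-5.50), GPR37 (-3.08), FAM20C (-2.55), PRKAR1B (-2.11), SEMA3C (-1.97) and SEMA3D (-1.56). With single libraries left out, FAM20C was also lower in C9orf89-CKO (-0.70 to -0.54), MLPH-CKO (-0.77 to -0.62) and RHBDD2-CKO (-0.75 to -0.42). SEMA3D was then lower in C9orf89-CKO (-0.87 to -0.66) and higher in MLPH-CKO (0.16 to 0.32) and RHBDD2-CKO (0.59 to 0.75). UNCX, a homeobox transcription factor, was at 0.377, 0.302 and 0.400 FPKM in MAGI2-CKO and at 13.4, 28.6 and 23.1 in Non-target. It was also low in the other clones, at 0.503 to 0.967 FPKM in C9orf89-CKO, 1.58 to 2.02 in MLPH-CKO and 0.161 to 0.510 in RHBDD2-CKO. The RHBDD2-CKO libraries overlapped those of MAGI2-CKO, and the libraries of C9orf89-CKO and MLPH-CKO lay above them and below Non-target. It fell by 4.66, 3.40 and 5.51 there on the log2 scale (adjusted p = 8.41e-07, 1.08e-05 and 1.51e-07 in limma), so that UNCX differed from Non-target in all 4 clones. PRKAR1B, a regulatory subunit of protein kinase A, was at 1.74, 1.95 and 1.87 FPKM in MAGI2-CKO, 7.30, 9.87 and 7.98 in Non-target and 3.30 to 5.04 in the other clones, between both. It was lower in all 3 of them in limma, with differences of -1.21 in RHBDD2-CKO, -0.92 in C9orf89-CKO and -0.77 in MLPH-CKO (adjusted p = 2.95e-06, 3.95e-05 and 0.000136).

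Some members went one way in MAGI2-CKO and the other way in another clone. SEMA3C, a secreted guidance cue for axons and blood vessels, was at 0.789, 0.806 and 0.687 FPKM in MAGI2-CKO, 3.10, 2.89 and 3.91 in Non-target and 5.4, 4.81 and 5.34 in RHBDD2-CKO. The 3 groups did not overlap, and SEMA3C rose by 0.65 in RHBDD2-CKO (standard error 0.12, adjusted p = 0.00105 in limma). ABCB1, the efflux pump also known as P-glycoprotein, was at 0.994, 0.915 and 0.821 FPKM in MAGI2-CKO and at 2.79, 2.66 and 3.15 in Non-target (-1.55). It was at 5.39, 5.32 and 5.25 in MLPH-CKO and at 4.04, 3.80 and 4.37 in RHBDD2-CKO, above every Non-target library. It rose by 0.87 and 0.49 in these clones (adjusted p = 9.97e-05 and 0.00497 in limma). PRR15, a proline-rich protein, had 0.312, 0.234 and 0.336 FPKM in MAGI2-CKO, 0.629, 0.717 and 0.604 in Non-target, 1.63, 2.14 and 1.82 in MLPH-CKO and 2.42, 3.13 and 2.08 in RHBDD2-CKO. Its rises of 1.38 and 1.80 passed the threshold (adjusted p = 7.35e-05 and 7.36e-06 in limma), and against the other clones it had the lowest value of any member with a mean of at least 1 FPKM in MAGI2-CKO, -2.16.

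ADCYAP1R1, the receptor of the neuropeptide PACAP, showed the reverse order. It was at 1.33, 1.3 and 1.21 FPKM in MAGI2-CKO and at 2.14, 2.86 and 2.05 in Non-target (-0.82), but at 0.465, 0.738 and 0.591 in MLPH-CKO and 0.161, 0.112 and 0.108 in RHBDD2-CKO. It fell by 1.82 and 3.42 in the last 2 clones (adjusted p = 8.64e-06 and 3.12e-08 in limma), which put MAGI2-CKO above the mean of the other clones by 1.09. ACHE, acetylcholinesterase, was at 0.191, 0.341 and 0.379 FPKM in MAGI2-CKO and 0.692, 0.666 and 0.783 in Non-target (-1.04). It rose by 1.19 in C9orf89-CKO and by 1.06 in MLPH-CKO (adjusted p = 0.00314 and 0.00549 in limma). SDK1, an adhesion protein, fell by 0.97 in C9orf89-CKO (adjusted p = 0.000557 in limma).

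RHBDD2 was lowest in 2 clones, once with its neighbours and once without them. It was at 27.4, 38.1 and 34.9 FPKM in Non-target, 11.7, 13.8 and 16 in MAGI2-CKO and 11.2, 13.5 and 12.4 in RHBDD2-CKO, where it is the targeted gene. The 2 clones overlapped each other and lay below the other 9 libraries. With single libraries left out, the difference of RHBDD2 to Non-target was -0.49 to -0.25 in C9orf89-CKO and -0.52 to -0.28 in MLPH-CKO. In MAGI2-CKO its difference was -1.27, rank 29 from the lowest of the members, and the median of its 20 nearest members was -0.53. In RHBDD2-CKO it fell by 1.42 (standard error 0.14, adjusted p = 7.56e-06 in limma), while the same 20 members had a median of -0.06, from -0.97 to 1.07. Against the other clones, RHBDD2-CKO included, the MAGI2-CKO value was -0.55.

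Members that escaped the shift were few and mostly low in expression. At or above the median of the rest of chromosome 7 (0.04) were 29 members, 6.46% of all. Of these, 17 had a mean under 1 FPKM, as did 62 of the 449 members. Their median level was 0.846 FPKM against 5.43 for the other members, and 20 of them were in the lowest of the 4 groups by expression. Against the mean of the other clones, 16 of the 29 fell below 0, and 12 were at or above the median of the rest.

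In 10 of the 29, all MAGI2-CKO libraries were above all Non-target libraries. These were GPER1, HOXA6, HOXA7, MLXIPL, METTL27, ZP3, PILRA, NYAP1, EPO and VGF. Those with a mean of at least 1 FPKM by the rule for named genes were MLXIPL, HOXA6 and HOXA7. MLXIPL, also known as ChREBP, a transcription factor that responds to glucose, was at 3.51, 4.41 and 4.39 FPKM in MAGI2-CKO and at 2.04, 1.88 and 2.08 in Non-target, a difference of 0.99. It was at 3.44, 5.05 and 4.10 in MLPH-CKO, where it rose by 1.02 (standard error 0.17, adjusted p = 0.000556 in limma). In C9orf89-CKO it was at 3.51, 2.62 and 2.89, a difference of 0.55 with an adjusted p of 0.0258 in limma, which reached 0.0984 when single libraries were left out. MLXIPL in MAGI2-CKO thus overlapped MLPH-CKO and lay 0.39 above the mean of the other clones.

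The values of the HOXA cluster differed between the references. Against Non-target, its 11 members had a median of -0.45 in MAGI2-CKO with 9 below 0, but against the other clones the median was -0.83. The cluster was higher in the clones without the shift: 7 of 11 members rose and 0 fell in C9orf89-CKO in limma, 6 rose and 1 fell in MLPH-CKO, and 4 rose and 0 fell in RHBDD2-CKO, with medians of 0.49, 0.34 and 0.25. The shares that rose were 63.6%, 54.5% and 36.4%, beside 12.9%, 14.5% and 17.4% of all tested genes. HOXA6 was at 17.8, 16.2 and 15.9 FPKM in MAGI2-CKO and at 13.6, 10.6 and 11.5 in Non-target (0.49). It was at 41.8, 29.3 and 32.8 in C9orf89-CKO, 24.3, 25.6 and 21.5 in MLPH-CKO and 28.5, 32.2 and 32.2 in RHBDD2-CKO, so that MAGI2-CKO lay between Non-target and all other clones without overlap. The rises in these 3 clones were 1.53, 1.00 and 1.38 (adjusted p = 2.55e-06, 7.41e-05 and 4.62e-06 in limma), and against their mean HOXA6 was at -0.81. HOXA5 rose by 0.83, 0.45 and 0.71 in the same clones in limma and was at -0.16 in MAGI2-CKO. HOXA7 was higher than the other clones in MAGI2-CKO by 0.39, at 3.10, 2.65 and 2.81 FPKM against 1.59 to 2.77 over their 9 libraries, which overlap. HOXA6 and HOXA7 overlap HOXA-AS3 on the other strand, and their reads cannot be told apart from it.

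The region deleted in Williams-Beuren syndrome held lowered and escaping members side by side. Of its 20 members, 15 were below 0, with a median of -0.51, and 4 were at or above the median of the rest. EIF4H, a translation initiation factor, had -0.71, BCL7B had -0.86 and GTF2I, a transcription factor, had -0.55. Between them lie MLXIPL, VPS37D (0.00) and DNAJC30, a mitochondrial chaperone that was at 3.44, 4.17 and 4.08 FPKM in MAGI2-CKO and 3.56, 3.98 and 3.44 in Non-target (0.09). DNAJC30 overlaps BUD23. In the other clones 1 member was higher and 0 lower (C9orf89-CKO), 3 and 1 (MLPH-CKO) and 1 and 0 (RHBDD2-CKO) in limma. The shares that were higher, 5%, 15% and 5%, were near or under the 12.9%, 14.5% and 17.4% of all tested genes.

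Among the imprinted genes of chromosome 7, which are expressed from 1 parental allele in some tissues, 5 were members, and all were below 0 with a median of -0.65. GRB10, an adaptor of insulin signalling, had -0.92, SGCE had -0.75, and DLX5 had -0.19. The 20 members listed as zinc finger genes by their symbol had a median of -0.60 with 19 below 0. They ran from ZNF117 (-1.14) to ZNF789 (0.07), and ZNF genes often have near-identical copies. A list of 14 transport and resistance genes held 4 members, and all were below 0. Besides ABCB1, SLC29A4, a monoamine transporter, had -1.12, CYP51A1, a sterol demethylase, -0.96, and POR, the reductase of cytochrome P450 enzymes, -0.91. CYP51A1 was also lower in C9orf89-CKO (-0.49, adjusted p = 0.0186 and up to 0.0828 under the alternatives), MLPH-CKO (-0.68) and RHBDD2-CKO (-0.60) in limma, and SLC29A4 in MLPH-CKO (-0.82) and RHBDD2-CKO (-0.87). In these clones 13.1%, 15.5% and 16.7% of all tested genes were lower.

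Of 4 other members that escaped, EFCAB10 and ZP3 were above Non-target but below the mean of the other clones, and EPO and VGF were above both. EFCAB10, which overlaps RINT1, was at 1.42, 0.70 and 1.13 FPKM in MAGI2-CKO and 0.894, 0.651 and 0.398 in Non-target (0.67), and rose by 1.29 in C9orf89-CKO and 1.48 in MLPH-CKO (adjusted p = 0.00182 and 0.000583 in limma), which left it at -0.56 against the other clones. ZP3, a glycoprotein of the egg coat, had 1.19 against Non-target and -0.36 against the other clones. EPO, erythropoietin, had 0 to 18 fragments in a library and was listed at 0, 0.243 and 0 FPKM in Non-target and at 0.271, 0.582 and 0.308 in MAGI2-CKO, which was 0.31 above the mean of the other clones. EPO also passed the threshold upward in C9orf89-CKO and MLPH-CKO in limma, in MLPH-CKO with an adjusted p of up to 0.112 under the alternatives. With single libraries left out, its difference was 1.82 to 2.71 in C9orf89-CKO and 1.27 to 2.26 in MLPH-CKO. In RHBDD2-CKO it was -0.11 to 0.78. VGF, a secreted neuropeptide precursor, was at 0.552, 0.706 and 0.682 FPKM in MAGI2-CKO, 0.276, 0.311 and 0.358 in Non-target and 0.205 to 0.569 in the other clones, and lay at 0.55 above the mean of these. GPER1, PILRA and VGF had at most 97 fragments in any library, so that the depth behind these values is low.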

How the data were processed

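Expression was deposited by the authors as FPKM, in a table for each library that lists 58735 genes. The unit is not stated and was worked out from the values: a value, multiplied by the merged exon length of its gene in GENCODE v29, came to a whole number of steps, the step being fixed within a library. This held within 0.02 of a step for all values under 2000 steps, which were the ones checked. The fragments recovered from these steps gave the depth. The submitters' processing notes name HISAT2 2.0.5, featureCounts 1.5.0-p3 and DESeq2, and the genome build is not given in the sources used here. Positions are those of GENCODE v29 (GRCh38). The libraries were made with the NEBNext Ultra RNA kit.

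The 16175 genes that reached 0.5 FPKM in 3 or more libraries entered a linear model of 5 groups over all 15 libraries in limma (version 3.58.1 under R 4.3.3), with a variance trend, on the scale log2(FPKM + 0.1). A fold on this scale understates the change of genes with low values. Benjamini-Hochberg adjustment was applied per comparison over all tested genes, and the threshold was 0.05. MAGI2-CKO entered the fit, which gave its log2 differences. No p-value or count past the threshold is given for it against Non-target, since that comparison chose the segment. Counts of libraries without overlap are given there as a description. Medians, running medians and the step were computed in Python 3.11.15 with numpy 2.4.6 and pandas 2.3.3, and figures were drawn with matplotlib 3.10.9. The fit was tested on simulated data, from which no result is given or used here.

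The members and the gene lists were chosen with earlier results of these data known. The genes named are MAGI2 and RHBDD2, the 5 members nearest to the edge and the 5 genes outside it, the 10 members with the highest mean, the largest rises and falls among members with a mean of at least 1 FPKM and libraries that do not overlap with Non-target (6 each in MAGI2-CKO and 3 each in the other clones, there past the threshold), the 3 largest each against the other clones, and genes of the lists. Of the named members, 1 is not reported here among those set apart for a closer look. Members that escaped and are not in these sets were named after their values were seen. Alternatives were other pseudocounts and filters, quantile normalization, limma without the trend, only 6 libraries, the replicate number as a block, voom on the recovered fragments, a mean in place of the median, the other clones as reference and each library left out. An edge before POT1 was chosen after seeing the data.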

Additional observations from a re-analysis of the deposited data

Results flagged for a closer look

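The values over the segment and the rest of chromosome 7 stand out by their sign. In them, all 3 libraries of 1 clone lay above the mean of Non-target, and all 3 of another clone lay below it. Single genes were picked where all 3 libraries of 1 clone lay above all those of Non-target and all 3 of another clone below them. Outside MAGI2-CKO, they also had to pass the threshold in limma. The differences between the clones were not tested. Over the rest of chromosome 7, the mean of the library medians differed by 0.0543 between C9orf89-CKO and MLPH-CKO (C9orf89-CKO higher), by 0.29 between C9orf89-CKO and RHBDD2-CKO (C9orf89-CKO higher), by 0.0506 between MAGI2-CKO and MLPH-CKO (MAGI2-CKO higher) and by 0.29 between MAGI2-CKO and RHBDD2-CKO (MAGI2-CKO higher), in log2 units. For the segment minus the rest, RHBDD2-CKO was above 0 and the other clones below, with a difference to it of -0.92 for MAGI2-CKO, -0.36 for C9orf89-CKO and -0.30 for MLPH-CKO.

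Of the 195 named members looked at, 27 were higher in at least 1 other clone and lower in MAGI2-CKO. Higher means past the threshold in limma with all 3 libraries above Non-target, and lower means all 3 MAGI2-CKO libraries below Non-target. The second condition was met by 355 of the 449 members (79.1%), on the values that chose the segment. Of all tested genes, 12.9% (C9orf89-CKO), 14.5% (MLPH-CKO) and 17.4% (RHBDD2-CKO) passed the threshold upward in limma. The share of all tested genes that meets both conditions was not computed, so the count of 27 does not set these members apart. In the clone with the largest rise, 7 of the 27 lost the call under at least 1 alternative, namely CDK6, SRRT, FSCN1, DBF4, ZNF655, PSMC2 and ARPC1A, with adjusted p-values in limma of up to 0.114. The differences below are those between MAGI2-CKO and the clone with the largest rise, on the log2 scale. RHBDD2-CKO was above MAGI2-CKO by 2.73 for PRR15, 2.62 for SEMA3C, 2.20 for SEMA3D, 1.84 for ETV1, 1.67 for DOCK4, 1.62 for COBL, 1.38 for ZNF12, 1.33 for MET, 1.11 for JAZF1, 1.07 for DBF4, 1.04 for CDK6, 0.99 for PTPN12, 0.72 for ZNF655, 0.58 for PMS2 and 0.48 for ZKSCAN5. C9orf89-CKO was above MAGI2-CKO by 2.32 for FSCN1, 2.23 for ACHE, 1.18 for HOXA11, 0.98 for HOXA10, 0.84 for ARPC1A and 0.51 for SRRT. MLPH-CKO was above MAGI2-CKO by 2.43 for ABCB1, 1.10 for HOXA13, 0.99 for PSMC2, 0.97 for TAX1BP1, 0.87 for CAV2 and 0.85 for CAV1. HOXA7 had the reverse order, 0.69 higher in MAGI2-CKO than in MLPH-CKO, as did TRIM24 in the rest of chromosome 7, 0.43 higher in MAGI2-CKO than in RHBDD2-CKO. No group of 3 libraries was examined for single outlying libraries.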

How the results depend on the processing

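The segment median in MAGI2-CKO was -0.50 with a pseudocount of 1, -0.64 with one of 0.01, -0.50 without a filter, -0.64 with voom on the recovered fragments, and -0.57 against the other 3 clones; its difference from the rest of chromosome 7 was -0.54 with a pseudocount of 1, -0.54 without a filter, and -0.76 as a mean. Without a filter the segment medians of C9orf89-CKO and MLPH-CKO were -0.0204 and -0.0219, and the differences from the rest were -0.0517 in C9orf89-CKO and 0.16 in RHBDD2-CKO, which with a pseudocount of 1 was 0.21. As means, these differences were -0.12 in C9orf89-CKO and -0.0711 in MLPH-CKO, and the segment of RHBDD2-CKO was at -0.0198. With an edge before POT1 the segment medians moved by less than the SD between libraries. The members at or above the median of the rest numbered 12 with a mean of at least 1 FPKM. With only the 6 libraries of the contrast, 49 members (10.9%) were lower in RHBDD2-CKO, beside 12.9% of all tested genes. When each library was left out in turn, the segment median ranged from -0.62 to -0.60 in MAGI2-CKO, from -0.07 to -0.04 in C9orf89-CKO, from -0.06 to -0.04 in MLPH-CKO and from -0.01 to 0.02 in RHBDD2-CKO, and 25 to 32 members escaped.

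The wells are numbered 1 to 3 in every group, and the labels do not say that a number marks a shared day or batch. Deviations from the group means were correlated between libraries of different groups. The median was 0.0856 over 30 pairs with the same number (0.00103 to 0.312), of which 12 were over 0.1. It was -0.0887 over 60 pairs with different numbers (-0.21 to 0.127). Of the 15 libraries, 12 correlated best with their own number, so libraries of the same number deviated in part together. The main fit did not take the numbers as pairs, and its p-values leave such a shared part out. With the replicate number as a block, 96 members (21.4%) were lower in C9orf89-CKO, against 57 without it, beside 18.7% of all tested genes with the block. The other counts of members with the block stayed within 1.5 times of those without it. In the rest of chromosome 7, the genes lower in C9orf89-CKO went from 11 to 21 with the block. In MLPH-CKO the lower ones there went from 17 to 31 and the higher ones from 12 to 22.

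Of 657 pairs of a named gene and one of the 3 tested clones, 178 passed the threshold in limma, and 102 of these did so under all 24 alternatives that gave a value. Of the 479 others, 127 passed it under at least 1 alternative. No value changed its sign where either fit passed the threshold. A member with few fragments, such as LRRC4 or EPO, is limited by depth. The cause of each change with the processing was not tested.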
